A study of Mus musculus with 16 samples.

Results

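The genes described here are those of the heat shock response and the unfolded protein response: the chaperones of the cytosol, the mitochondrion and the endoplasmic reticulum (ER), and the sensors and transcription factors of ER stress. They were taken from a list of 37 genes, and each gene was read from its brightest probe set among those assigned to a single gene symbol. Of the 37, 35 were measured, among 12266 genes tested in all, and all 35 passed the filter on low values. They comprised 12 cytosolic chaperones and co-chaperones, 2 subunits of the mitochondrial chaperonin, 15 ER chaperones and ER-resident proteins, and 6 sensors and transcription factors. Hsp90ab1 and Hsf1 are not analysed here, because no probe set was assigned to either symbol alone in the annotation used. Probe sets assigned to several symbols were left out.

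RNA of the hippocampus was measured on 16 Affymetrix arrays, 1 per animal. All animals were female 3xTg-AD mice, 14 months old, which carry mutant human APP and tau transgenes driven by the neuronal Thy1 promoter on a mutant presenilin 1 knock-in background. The 8 control animals (subjects 1 to 8) ate a control diet, and the 8 PIO animals (subjects 9 to 16) ate a diet with pioglitazone at 84 ppm, a dose of about 18 mg per kg of body weight per day, from 10 months of age for about 14 weeks. Pioglitazone is a thiazolidinedione, an agonist of the nuclear receptor PPAR gamma. No wild-type animals were analysed here, so nothing below separates the effect of the transgenes from the normal state. Levels are log2 values as deposited, differences are PIO minus control in log2 units, and levels of different genes are not compared, since each probe set has its own brightness.

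In the cytosol, unfolded protein draws HSP70 and HSP90 away from the transcription factor HSF1, which then binds heat shock elements and induces HSP70, HSP40 and small heat shock proteins. In the ER, the chaperone BiP (Hspa5) leaves the sensors PERK, IRE1 and ATF6 when unfolded protein accumulates. ATF6 and spliced XBP1 then induce ER chaperones through ER stress elements, and PERK acts through ATF4 and CHOP. Both responses have been studied in Alzheimer's disease, in which amyloid and tau aggregate.

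A promoter, 250 bases before to 50 bases after the start of the gene (RefSeq, GRCm38.p6), was found for 30 of the 35 genes, and Hspa8, Hsp90aa1, Hyou1, Manf and Atf6 were not searched. The ER stress element ERSE was searched on both strands as CCAAT and CCACG with 9 free bases between them. It was found in 7 of 13 ER genes, in 0 of 10 cytosolic chaperones and in 0 of 5 sensors and factors. Of all 32851 promoters, 0.119% held it. Here and below a gene counted if any of its promoters held the element, while percentages are of single promoters. The related ERSE-II, searched on both strands as ATTGG and CCACG with 1 free base between them, was found in 2 ER genes and in 0.0365% of promoters. It contains the ERSE's CCACG end and the complement of its CCAAT end, and no ER gene held both elements. The sites are shown with 20 bases on either side, each on the gene's strand, 5′ to 3′, with the element in capitals. They are shown because an element of this kind was found in 9 of the 13 ER genes searched and the ERSE in none of the 10 cytosolic chaperones searched.
Hspa5, chr2:34772005-34772063, plus strand: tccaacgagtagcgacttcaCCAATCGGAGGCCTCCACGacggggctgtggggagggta
Pdia6, chr12:17266471-17266529, plus strand: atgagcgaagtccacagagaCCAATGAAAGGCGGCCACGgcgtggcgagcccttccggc
Dnajc3, chr14:118937807-118937865, plus strand: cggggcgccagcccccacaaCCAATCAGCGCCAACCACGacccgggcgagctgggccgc
Canx, chr11:50325780-50325838, minus strand: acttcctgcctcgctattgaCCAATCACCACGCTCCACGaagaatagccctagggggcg
Calr, chr8:84847055-84847113, minus strand: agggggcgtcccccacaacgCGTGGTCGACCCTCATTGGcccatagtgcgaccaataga
Creld2, chr15:88819500-88819558, plus strand: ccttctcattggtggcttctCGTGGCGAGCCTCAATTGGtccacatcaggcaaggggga
Herpud1, chr8:94386357-94386407, plus strand: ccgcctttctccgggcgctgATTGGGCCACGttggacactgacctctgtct

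In Calr and Creld2 the element lay in the opposite orientation. Hsp90b1 held 2 ERSE copies in opposite orientations, on the minus strand within chr10:86705513-86705676. The copy farther from the start read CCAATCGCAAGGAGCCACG and the nearer one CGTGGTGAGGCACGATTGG. In Dnajb11 the ERSE-II, ATTGGCCCACG, lay 8 to 18 bases after the start.

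The heat shock element, searched on both strands as GAA, TTC and GAA with 2 free bases between neighbours, stood in the promoter of 1 of 10 cytosolic chaperones, in those of both mitochondrial chaperonin subunits and in 0.603% of all promoters. Hspe1 and Hspd1 are divergent neighbours and share 1 stretch of 18 bases that holds 2 overlapping matches, shown on the strand of Hspe1 because it lies in the promoters of 2 of the genes.
Hspe1, chr1:55088059-55088076, plus strand: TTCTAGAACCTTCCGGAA
Hsph1, chr5:149636288-149636300, minus strand: TTCTGGAAAGTTC

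The Hsph1 match lay just after the start. A match is a description of the letters, and a missing match says only that this spelling was absent from the window.

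**Figure D1:**
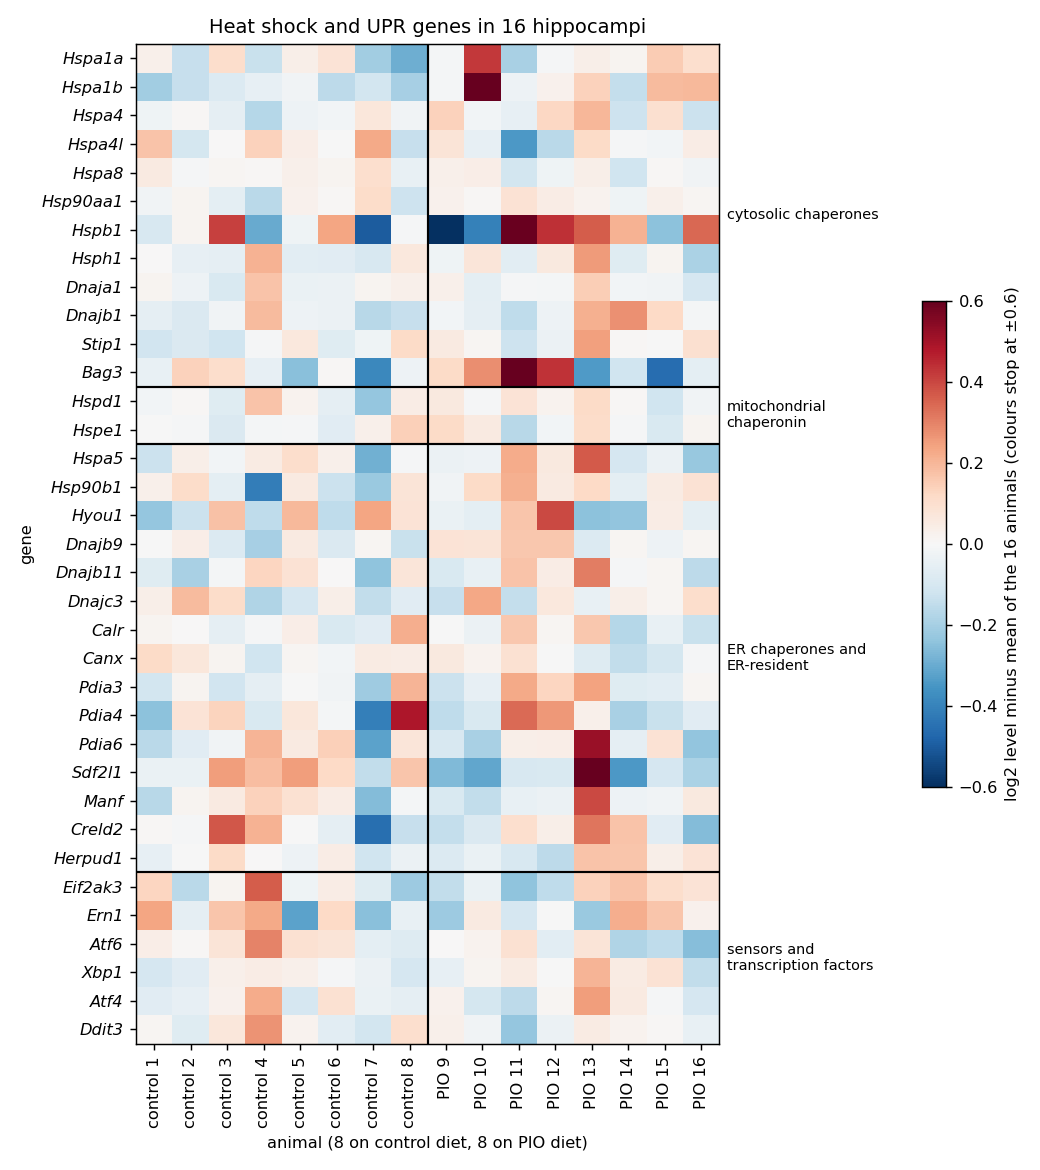
Log2 level of each of the 35 genes (rows, by role) in each of the 16 animals (columns, 8 control and 8 PIO), as the difference from the gene's mean over all animals, with colours stopping at 0.6 log2 units. PIO animal 13 had the highest level of 12 genes and control animal 7 the lowest level of 9, while no role turned colour at the line between the diets.

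None of the heat shock or unfolded protein response genes differed between the diets after adjustment. Of the 35 genes, 22 were higher and 13 lower with PIO, and the smallest adjusted p was 0.644 (limma, Benjamini-Hochberg over all 12266 genes). Of all genes, 0 (0%) passed the adjusted threshold of 0.05, while 859 (7%) had an unadjusted p under 0.05, 473 of them (3.86%) higher with PIO. Of the 35 genes, 2 had such a p, and both were higher: Hspa1b, an inducible HSP70, and Dnajb9, an ER co-chaperone of BiP. The diets overlapped in all 35 genes, as they did in all but 4 (0.0326%) of the 12266. For 19 of the 35 the difference was smaller than its SE. In bulk tissue, fewer cells of a type and less RNA per cell cannot be told apart.

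The inducible HSP70 genes come first among the cytosolic chaperones. They encode nearly identical proteins that refold stress-damaged protein, and as near-identical neighbours Hspa1a and Hspa1b may exchange signal on the array, so the split between them is uncertain. Hspa1b lay at 10.43, 10.52 and 10.62 (lowest, median and highest) in control animals and at 10.50, 10.73 and 11.25 in PIO animals. Of the 8 PIO animals, 6 were above the highest control animal, and PIO animal 10 stood well above the other 7. Hspa1b was 0.24 ± 0.08 (SE) higher with PIO, a fold of 1.18, with an unadjusted p of 0.00828 and an adjusted p of 0.644 by limma. An exact two-sided permutation test over 12870 rearrangements gave an unadjusted p of 0.0033. The same test gave 0.0437 (Dnajb9) to 0.253 (Hspa4l) for the other genes named for diet. It rearranged the animals without regard to array number, and Hspa1b already had the smallest limma p of the genes described. The permutation p is therefore not separate evidence for Hspa1b. All 3 probe sets of Hspa1b were higher with PIO, by 0.21 to 0.24, and without PIO animal 10 the difference was 0.17. Its within-range and covariate values stayed close: 0.18 among arrays 10 to 24, 0.24 with the choroid plexus markers as a covariate and 0.28 with the striatal markers.

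Hspa1a ran from 7.94 through 8.18 to 8.34 in control animals and from 8.04 through 8.26 to 8.66 in PIO animals. Of the 8 PIO animals, 2 were above the highest control animal, again with PIO animal 10 on top, and the difference of 0.13 ± 0.08 (SE) had an adjusted p of 0.762 by limma. Without PIO animal 10 it was 0.08.

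HSP70 relatives with constitutive or exchange functions did not share a direction. Hspa8, the constitutive cytosolic HSP70, lay at 15.15, 15.21 and 15.30 in control animals and at 15.08, 15.19 and 15.24 in PIO animals. Its difference of -0.04 ± 0.03 (SE) came with 2 of its 4 probe sets lower and the others higher. Hspa4, an HSP110-type nucleotide exchange factor, lay at 11.08, 11.23 and 11.32 against 11.13, 11.30 and 11.46 in PIO animals, a difference of 0.06 ± 0.05 (SE), and its 4 probe sets were also split. Hspa4l, its close relative, lay at 11.01, 11.17 and 11.38 against 10.81, 11.14 and 11.27, a difference of -0.08 ± 0.07 (SE). None of these differences exceeded the spread between animals. Single animals moved all 3 by over 1.5 times: Hspa8 was at -0.03 without PIO animal 14, Hspa4 at 0.04 without PIO animal 13 and Hspa4l at -0.04 without PIO animal 11.

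Among the HSP90 and HSP40 genes, Hsp90aa1, the inducible HSP90, lay at 14.89, 15.05 and 15.17 in control animals and at 15.03, 15.08 and 15.14 in PIO animals. All PIO animals thus fell inside the control range, and their SD of 0.03 was smaller than the control SD of 0.09 (n = 8 each). Dnajb1, an HSP40 that delivers substrates to HSP70 and is itself heat-inducible, lay at 10.99, 11.12 and 11.35 against 11.01, 11.15 and 11.44 with PIO, a difference of 0.09 ± 0.06 (SE). Stip1, the adaptor that joins HSP70 to HSP90, lay at 10.67, 10.75 and 10.91 against 10.67, 10.80 and 11.04, a difference of 0.06 ± 0.05 (SE). All 3 differences had an adjusted p of 0.801 or more by limma. That of Hsp90aa1 went from 0.05 to 0.03 without control animal 4, that of Dnajb1 was 0.05 without PIO animal 14 and that of Stip1 was 0.03 without PIO animal 13. Among arrays 10 to 24 alone the difference was 0.03 for Hsp90aa1, 0.16 for Dnajb1 and 0.01 for Stip1.

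Hspb1, the small heat shock protein HSP27, and Bag3, a co-chaperone that links HSP70 to selective autophagy, were the most variable genes of the list. Hspb1 lay at 7.13, 7.61 and 8.03 in control animals and at 6.59, 7.90 and 8.22 in PIO animals, where animal 9 was lowest of all and animal 11 highest. Bag3 lay at 7.39, 7.74 and 7.91 in control animals and at 7.32, 7.80 and 8.43 in PIO animals. Both spans were wider in PIO animals, and the differences of 0.07 ± 0.20 and 0.13 ± 0.14 (SE) were smaller than their SE. Hsph1 and Dnaja1, an HSP110 and an HSP40, differed by 0.01 and -0.01, and only 1 of the 3 Dnaja1 probe sets was lower with PIO. The mitochondrial chaperonin subunits Hspd1 (HSP60) and Hspe1 (HSP10), which fold imported matrix proteins, differed by 0.03 and 0.0047.

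**Figure D2:**
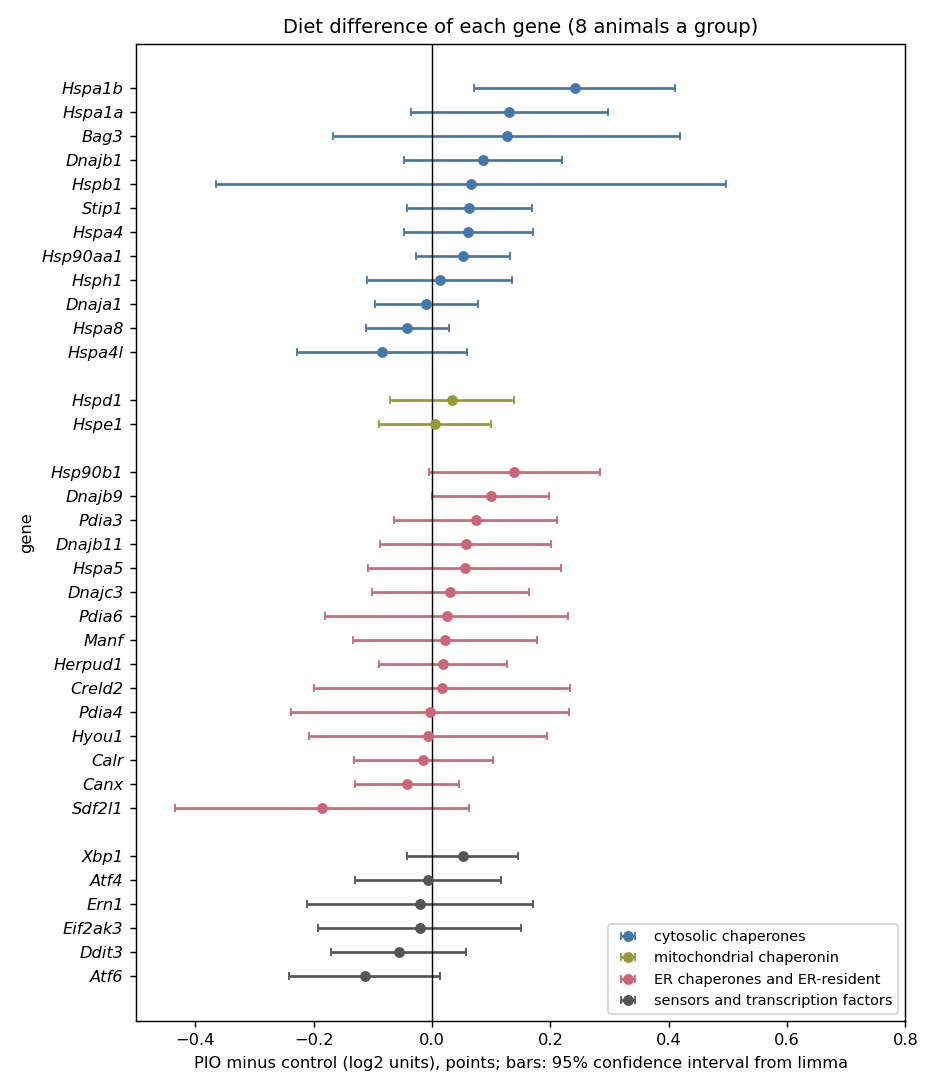
PIO minus control difference of each of the 35 genes in log2 units (points) with its 95% confidence interval from limma (bars), by role, 8 animals a group. The intervals of Hspb1, Bag3 and Sdf2l1 were the widest of those drawn, and the intervals of Hspa1b and Dnajb9 alone lay on one side of 0.

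Of the 15 ER genes, 10 were higher and 5 lower with PIO, with a median difference of 0.02. Dnajb9 (ERdj4), which helps BiP hold IRE1 inactive and is a target of spliced XBP1, lay at 11.81, 11.96 and 12.06 in control animals and at 11.92, 12.05 and 12.17 in PIO animals. Of the 8 PIO animals, 4 were above the highest control animal, and the difference was 0.10 ± 0.05 (SE) with an unadjusted p of 0.0491 and an adjusted p of 0.712 by limma. Hsp90b1 (GRP94), the ER form of HSP90, lay at 13.31, 13.71 and 13.84 in control animals and at 13.66, 13.79 and 13.94 in PIO animals. Control animal 4 was the lowest, at 13.31, and control animal 7 the next lowest, at 13.50. The difference of 0.14 ± 0.07 (SE) had an adjusted p of 0.726 by limma and was 0.09 without control animal 4.

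Sdf2l1, a component of the ER chaperone complex that prevents aggregation, had the largest negative difference of the 35. It lay at 7.61, 7.90 and 8.01 in control animals and at 7.41, 7.62 and 8.42 in PIO animals. Of the 8 PIO animals, 4 were below the lowest control animal, while PIO animal 13 was above the highest. The difference was -0.19 ± 0.12 (SE; adjusted p = 0.773 by limma), and without PIO animal 13 it was -0.29 (adjusted p = 0.329).

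The other ER genes differed by less. Hspa5 (BiP), the central ER HSP70, lay at 13.15, 13.45 and 13.55 in control animals and at 13.21, 13.41 and 13.81 in PIO animals, a difference of 0.06 ± 0.08 (SE). Pdia3, a disulfide isomerase that works with the lectin chaperones, lay at 12.46, 12.64 and 12.88 against 12.55, 12.66 and 12.92, a difference of 0.07 ± 0.07 (SE). The lectin chaperones themselves, Calr and Canx, differed by -0.01 and -0.04, and in each only 1 of 3 probe sets was lower with PIO. In each of these 4 genes the groups overlapped.

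Hyou1 (GRP170), a nucleotide exchange factor of BiP, lay at 8.82, 9.03 and 9.29 against 8.81, 9.00 and 9.45, and Dnajc3 (P58IPK), an ER co-chaperone that inhibits PERK, at 10.37, 10.54 and 10.74 against 10.41, 10.57 and 10.78. The differences of -0.01 ± 0.09 and 0.03 ± 0.06 (SE) were within the spread. For Dnajc3 the 5 probe sets ran from -0.16 to 0.14, so its direction depended on the probe set. The remaining 6 ER genes, among them Manf, a secreted ER stress factor, and Herpud1, a component of ER-associated degradation, had differences from -0.0035 (Pdia4) to 0.06 (Dnajb11).

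Of the 6 sensors and factors, 1 was higher and 5 lower with PIO, with a median difference of -0.02. Atf6, which encodes the sensor that is cleaved into an activator of ER chaperone genes, lay at 10.12, 10.25 and 10.50 in control animals and at 9.94, 10.17 and 10.29 in PIO animals. PIO animals 14, 15 and 16 were below the lowest control animal and control animal 4 stood above all others. The difference of -0.11 ± 0.06 (SE) had an adjusted p of 0.742 by limma, and of its 3 probe sets 1 went the other way.

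Ern1, the gene of IRE1, lay at 7.32, 7.68 and 7.88 against 7.42, 7.65 and 7.86 with PIO, and Ddit3, the gene of CHOP, at 9.12, 9.24 and 9.50 against 9.00, 9.22 and 9.28. Their differences of -0.02 ± 0.09 and -0.06 ± 0.05 (SE) were small beside their spread. Eif2ak3, the gene of PERK, and Atf4, its downstream factor, differed by -0.02 and -0.01, and Xbp1, the factor activated by IRE1 splicing, by 0.05. The array does not separate the spliced from the unspliced Xbp1 message, and it does not measure cleavage of the ATF6 protein or phosphorylation.

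**Figure D3:**
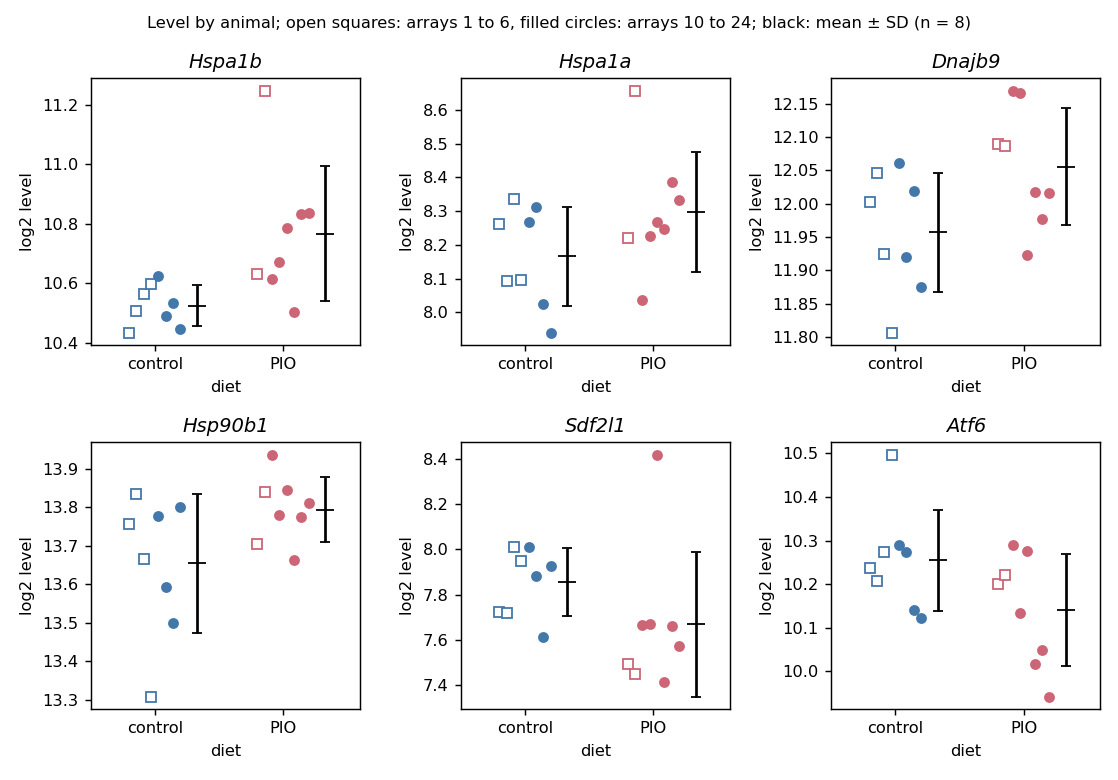
Log2 levels of 6 genes in every animal by diet, with open squares for arrays 1 to 6, filled circles for arrays 10 to 24, and the mean ± SD (n = 8) in black. PIO animal 10 is the high open square in Hspa1b and Hspa1a, and PIO animal 13 is the high point in Sdf2l1.

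Set side by side, the cytosolic chaperones had a median difference of 0.06 with 9 of 12 higher (75%), the ER genes 0.02 with 10 of 15 higher (66.7%), and the sensors and factors -0.02 with 1 of 6 higher (16.7%). Over all 12266 genes the median difference was 0.0045 and 52.7% were higher. The mean of the gene-centred cytosolic levels was below 0 in 7 of 8 control animals and in 3 of 8 PIO animals, at -0.03 ± 0.03 and 0.03 ± 0.06 (SD, n = 8). For the ER genes it was below 0 in 4 control and 5 PIO animals, at -0.01 ± 0.08 and 0.01 ± 0.10 (SD, n = 8). The cytosolic minus the ER mean was -0.02 ± 0.07 in control and 0.02 ± 0.07 in PIO animals (SD, n = 8), and the groups overlapped. Without PIO animal 13 the ER median was -0.0040, and among arrays 10 to 24 alone the median of the sensors and factors was 0.05. Neither of these small medians thus kept its sign. Among arrays 10 to 24 alone the cytosolic median was 0.033 and the ER median 0.076, so their order was reversed there.

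Markers of other cell types and regions also lay mostly on one side between the diets, with 0 past the adjusted threshold in any list. Of the 11 measured microglial markers all were lower with PIO (median -0.20), as were all 11 oligodendrocyte markers (median -0.22), and 11 of 12 hippocampal neuron markers (median -0.15), a list whose 12 members were all above the filter in this tissue. All 11 choroid plexus markers were higher with PIO (median 1.37), as were all 8 thalamic markers (0.15) and 7 of 8 striatal markers (0.20), while 8 of 10 astrocyte markers (-0.07) and 5 of 8 endothelial markers (-0.15) were lower. The mean of the gene-centred microglial markers ran from -0.21 to 0.52 in control and from -0.27 to 0.24 in PIO animals, and that of the oligodendrocyte markers from -0.16 to 0.32 and from -0.54 to 0.14. That of the choroid plexus markers ran from -3.32 to 2.53 and from -3.64 to 2.74, and was below 0 in 4 control and 2 PIO animals. That of the thalamic markers ran from -0.28 to 0.10 and from -0.38 to 1.41. Striatal markers were highest in PIO animals 14 and 15 and thalamic markers in PIO animal 16, the 3 animals with the lowest Atf6. With the choroid or the striatal marker mean as a covariate, the 12 genes named for diet kept their direction. The striatal covariate moved Atf6 to -0.07 and Dnajb1 to 0.06, and the choroid covariate moved Hspa8 to -0.03 and Hspa4l to -0.03, while the other differences moved by less than 1.5 times. The part of the other marker lists in the chaperone values was not tested. Neither of the 2 measured blood markers was above the filter.

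Other genes of the same pathways were counted from lists of textbook members. Of 43 other measured heat shock genes, 23 were higher and 20 lower with PIO, with a median of 0.02, and 2 had an unadjusted p under 0.05, both higher, beside 7% of all genes. These were Cct8 and Cct6a, subunits of the cytosolic chaperonin that folds actin and tubulin, at 0.14 ± 0.05 and 0.11 ± 0.04 (SE; adjusted p = 0.661 and 0.681 by limma). The next were Dnaja4, an HSP40, at 0.14 and Bag2, an HSP70 co-chaperone, at 0.17.

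Of 40 other genes of ER folding and ER-associated degradation, 24 were higher and 16 lower, with a median of 0.01, and 1 had an unadjusted p under 0.05, again beside 7%. That gene was Ufd1, which helps extract proteins from the ER for degradation, at 0.09 ± 0.04 (SE; adjusted p = 0.681 by limma). Ssr1, of the translocon-associated complex, Selenos, of the degradation machinery, and Sec63, of the translocon, followed at 0.07, 0.11 and -0.09. Of 29 other genes of the integrated stress response 10 were higher and 19 lower, with a median of -0.02, and 1 had such a p. It was Bbc3, which encodes the pro-apoptotic protein PUMA, at 0.22 ± 0.10 (SE) with an adjusted p of 0.705. Psat1 and Phgdh of serine synthesis and Mthfd2 of mitochondrial folate metabolism, all known ATF4 targets, were at -0.12, -0.08 and -0.15.

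The array number at the start of each array description fell into 2 ranges, 1 to 6 in 4 control and 2 PIO animals and 10 to 24 in 4 control and 6 PIO animals, so it is partly confounded with diet. What the number stands for is not stated in the labels. With diet in the fit, 0 of the 35 genes differed between the ranges at an unadjusted p under 0.05, against 1249 of all genes (10.2%), and 1 gene in all (0.00815%), Usp2, passed the adjusted threshold. Differences below are arrays 10 to 24 minus arrays 1 to 6.

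Of the 35 genes, Hspb1 had the largest difference between the ranges, at 0.39 ± 0.20 (SE), with an unadjusted p of 0.0758 and an adjusted p of 0.542 by limma. It lay at 6.59, 7.43 and 8.03 on arrays 1 to 6 and at 7.13, 7.85 and 8.22 on arrays 10 to 24. The lowest values on arrays 1 to 6 were those of PIO animals 9 and 10, the only PIO animals of that range. In these animals the mean of the 8 measured endothelial markers was also the lowest, at -0.63 and -0.60. Control animal 7, on arrays 10 to 24, was below PIO animal 10 in Hspb1 (7.13 against 7.22), with an endothelial mean of 0.05. In control animals alone the Hspb1 difference was -0.08. The part of the endothelial signal in it was not tested.

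Pdia3 and Hyou1 were higher on arrays 10 to 24, by 0.11 ± 0.07 and 0.13 ± 0.10 (SE), and Stip1 and Hsp90aa1 by 0.06 and 0.04. Lower there were Atf6 (-0.09), Hspa1a (-0.12), Bag3 (-0.19), Dnajc3 (-0.08), Hspa1b (-0.10), Ern1 (-0.11) and Ddit3 (-0.07), each with an adjusted p of 0.618 or more. The groups overlapped in each of them, and Bag3 spanned 7.73 to 8.05 on arrays 1 to 6 and 7.32 to 8.43 on arrays 10 to 24. Without PIO animal 10 the Hspa1b difference was 0.02. With the array range as a term the diet difference of Hspa1b was 0.27 and that of Atf6 -0.09.

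In the wider pathways, 5 of 43 other heat shock genes, 5 of 40 genes of ER folding and degradation and 1 of 29 genes of the integrated stress response had an unadjusted p under 0.05 for the array range, beside 10.2% of all genes, and 0 passed after adjustment. Lower on arrays 10 to 24 were Fkbp5, an HSP90 co-chaperone induced by glucocorticoids (-0.26 ± 0.10), Bag4 (-0.14), Cct5 (-0.11), Pdia5 (-0.22), Edem3 (-0.08), Ssr3 (-0.10) and Ddit4 (-0.26). Higher there were Sqstm1, the autophagy receptor p62 (0.10), and Syvn1, the ubiquitin ligase of ER-associated degradation (0.11). These had unadjusted p values of 0.0131 to 0.0321 and adjusted p values of 0.373 or more by limma. Creb3l2, Ppp1r15a and Crebrf, the next genes of the integrated stress response, had differences of -0.17, 0.14 and -0.08.

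The spread between animals of one diet was measured as the SD pooled over the 2 diets and ranked among the 12266 genes. The smallest spreads among the 35 were those of Hspa8 at percentile 2.38, Hsp90aa1 at 6.32, Dnaja1 at 11.5 and Canx at 12.2. At the other end stood Hspb1 at percentile 95.9 with an SD of 0.44, Bag3 at 90.1 with 0.30, Sdf2l1 at 85.8 with 0.25, Pdia4 at 83.9 with 0.24, Creld2 at 80.6 with 0.22 and Pdia6 at 78.4 with 0.20. The median percentile was 45.3 for the cytosolic chaperones, 56.1 for the ER genes and 43.7 for the sensors and factors. An SD in log2 units also depends on the brightness of the probe set, and that dependence was not tested.

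Pdia4, Pdia6 and Creld2 are ER-resident proteins, the first pair disulfide isomerases, and their diet differences were -0.0035, 0.02 and 0.02. Pdia4 lay at 8.77, 9.21 and 9.66 in control and at 8.98, 9.10 and 9.52 in PIO animals. Creld2 lay at 8.94, 9.39 and 9.77 against 9.14, 9.38 and 9.72, and Pdia6 at 9.76, 10.10 and 10.29 against 9.84, 10.07 and 10.60. Control animal 7 was the lowest of all 16 in each of the 3 genes. The SD was larger in PIO than in control animals in 24 of 35 genes (68.6%), beside 59.0% of all genes, and in 10 of 12 cytosolic chaperones. The ratio of the SDs was 3.31 for Hspa1b, where PIO animal 10 sets the spread, and 0.36 for Hsp90aa1.

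**Figure D4:**
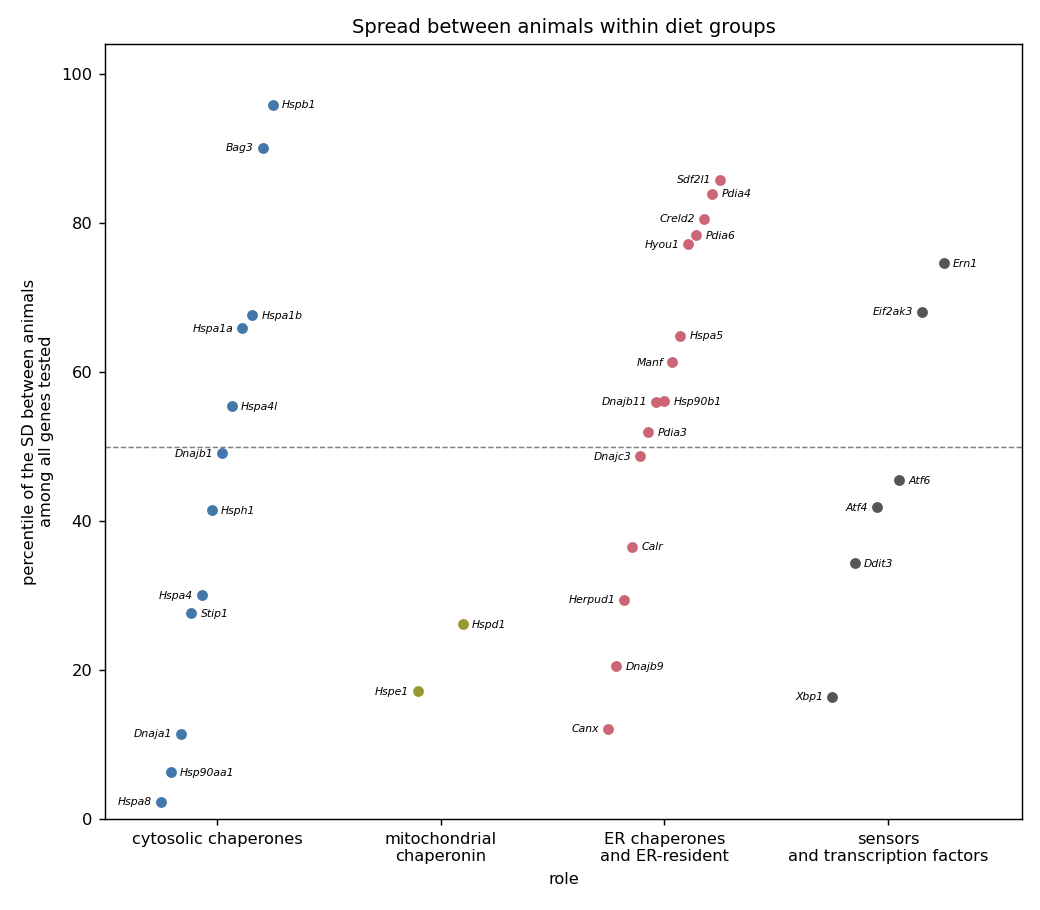
Percentile of each gene's pooled SD between animals among all 12266 genes (vertical axis), by role, 1 point per gene, with the median gene dashed. The cytosolic chaperones run from Hspa8 at 2.38 to Hspb1 at 95.9.

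Some of the ER genes varied with Hspa5 from animal to animal. Each gene was fitted on the level of Hspa5 with diet as a term; Hspa5 was chosen as the reference after the values had been seen. Of the 14 other ER genes, 8 had a positive slope at an unadjusted p under 0.05, while 4.32% of the 12265 other genes did, and 0 genes (0%) passed after adjustment. The 8 were Dnajb11, Pdia6, Pdia3, Manf, Creld2, Calr, Sdf2l1 and Pdia4. Among all 12265 genes ranked by p, Pdia6 was at rank 2, Dnajb11 (ERdj3), a BiP co-chaperone, at rank 5 and Sdf2l1, which forms a complex with Dnajb11, at rank 8.

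Dnajb11 followed Hspa5 with r = 0.86 and rho = 0.79 over 16 animals (permutation p = 5e-05 and 0.00027; adjusted p of the slope over all genes = 0.162 by limma). Within the diets r was 0.70 in control and 0.96 in PIO animals, on arrays 10 to 24 alone it was 0.97, and without the 2 animals farthest from the median of Hspa5 it was 0.69. Pdia6 followed with r = 0.85 and rho = 0.72 (permutation p = 7e-05 and 0.00219; adjusted p = 0.132), and with r = 0.63 without those 2 animals. Both relations were thus weaker, and of the same sign, without the extremes.

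The relation of Manf rested on them: r was 0.71 and rho 0.52 (permutation p = 0.0037 and 0.0421; adjusted p = 0.535) and r was 0.20 without the 2 animals. Sdf2l1 went from r = 0.64 to 0.38 and Creld2 from 0.67 to 0.35 in the same way, while Pdia3 went from 0.74 to 0.52, Calr from 0.65 to 0.59 and Pdia4 from 0.56 to 0.57. Within the diets, the r of Calr was 0.22 in control and 0.93 in PIO animals. It was 0.60 and 0.81 for Pdia3 and 0.63 and 0.58 for Pdia4. The 2 animals were PIO animal 13, with Hspa5 at 13.81, and control animal 7, at 13.15. Without them the number of the 14 with such a p was 5. With quantile normalization the count was 8, with the choroid plexus markers as a covariate 8, with the difference of the 3′ and 5′ beta-actin probe sets as a covariate 8, and on arrays 10 to 24 alone 7.

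PIO animal 13 was the highest of all 16 in 7 of the 15 ER genes and control animal 7 the lowest in 7. Both animals stood at the low end of the choroid plexus markers, a tissue that adjoins the hippocampus: the mean of the 11 measured markers was -3.64 in PIO animal 13 and -3.32 in control animal 7, the lowest pair of the 16, while 10 animals lay between 0.65 and 2.74. The other 4 animals with low choroid markers had gene-centred ER means of -0.07 (control animal 1), -0.02 (control animal 4), 0.06 (control animal 5) and -0.08 (PIO animal 9), beside 0.19 in PIO animal 13 and -0.17 in control animal 7. The 3′ minus 5′ difference of beta-actin was 0.84 and 0.79 in the 2 animals, within the range of 0.74 to 0.93 over all 16. The mean of the gene-centred striatal markers was 0.35 in control animal 7, the highest of the control animals, and -0.08 in PIO animal 13. The part of the striatal signal in the relations with Hspa5 was not tested.

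The other 6 ER genes did not have such a p. The r was -0.17 for Dnajc3, -0.13 for Canx, -0.06 for Hyou1, 0.01 for Dnajb9, 0.16 for Herpud1 and 0.34 for Hsp90b1, with permutation p values of 0.201 to 0.980. Without PIO animal 13 and control animal 7 it was -0.42 for Dnajc3, 0.18 for Canx, 0.50 for Hyou1, 0.24 for Dnajb9, -0.50 for Herpud1 and 0.07 for Hsp90b1, and on arrays 10 to 24 alone it was 0.63 for Hsp90b1. The division into 8 and 6 thus depended on the animals included. Of these 6, Dnajc3, Canx and Hsp90b1 carry the ERSE shown above and Herpud1 the ERSE-II. Of the other 8, Pdia6, Calr and Creld2 carry the ERSE and Dnajb11 the ERSE-II. Hyou1 and Manf were not searched, and whether the elements differ in frequency between the 6 and the 8 was not tested.

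Outside the ER genes, Hsph1 (r = 0.60), Hspd1 (0.66), Atf6 (0.53) and Xbp1 (0.69) also rose with Hspa5 at an unadjusted p under 0.05, and each had an adjusted p of 0.583 or more by limma. The other 11 cytosolic chaperones did not, among them Hspa1a (r = -0.05) and Hspa1b (0.08). Without PIO animal 13 and control animal 7, r was 0.29 for Hsph1, 0.40 for Hspd1, 0.62 for Atf6 and 0.54 for Xbp1.

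The same fit was made on Hsph1, likewise chosen after the values had been seen. Of the 12265 other genes, 9.43% rose with Hsph1 at an unadjusted p under 0.05 and 1 (0.00815%), Atpsckmt, passed after adjustment. Dnaja1 followed it with r = 0.81 and rho = 0.50 (permutation p = 0.00068 and 0.049; adjusted p of the slope = 0.143 by limma), and with r = 0.42 without PIO animal 13 and control animal 4, the 2 animals farthest from the median of Hsph1. At an unadjusted p under 0.05, 7 of the 15 ER genes rose with Hsph1: Hspa5 and 6 of the 8 that rose with Hspa5. The r was 0.72 for Pdia6, 0.67 for Dnajb11, 0.60 for Hspa5, 0.55 for Sdf2l1, 0.51 for Calr, 0.50 for Manf and 0.49 for Creld2. Without the 2 animals these were, in the same order, 0.33, 0.37, 0.35, 0.03, 0.49, -0.26 and 0.17. Hspd1 also rose with Hsph1, and its r went from 0.57 to 0.23. So did 4 of the 6 sensors and factors, which were Atf4 (r = 0.67), Ddit3 (0.59), Xbp1 (0.58) and Atf6 (0.54). Dnaja1 was the only one of the 11 other cytosolic chaperones to do so. Without the 2 animals r was 0.05 for Atf4, 0.33 for Ddit3, 0.23 for Xbp1 and 0.24 for Atf6.

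Hspa1a and Hspa1b followed each other with r = 0.75 and rho = 0.51 (permutation p = 0.00186 and 0.0442; adjusted p of the slope over all genes = 0.998), with r = 0.22 in control and 0.89 in PIO animals. Without PIO animals 10 and 16 it was 0.43. Hspa1b was likewise chosen as a reference after the values had been seen. Of the 12265 other genes, 213 rose with it at an unadjusted p under 0.05. Shared signal between the near-identical genes cannot be told apart from a shared level. The relations given with a permutation p number 16 (14 with Hspa5, 1 with Hsph1 and 1 with Hspa1b), and the adjusted p values are those of the slopes over all genes. The permutations shuffled all 16 animals without regard to diet or array range, and their p values are unadjusted.

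**Figure D5:**
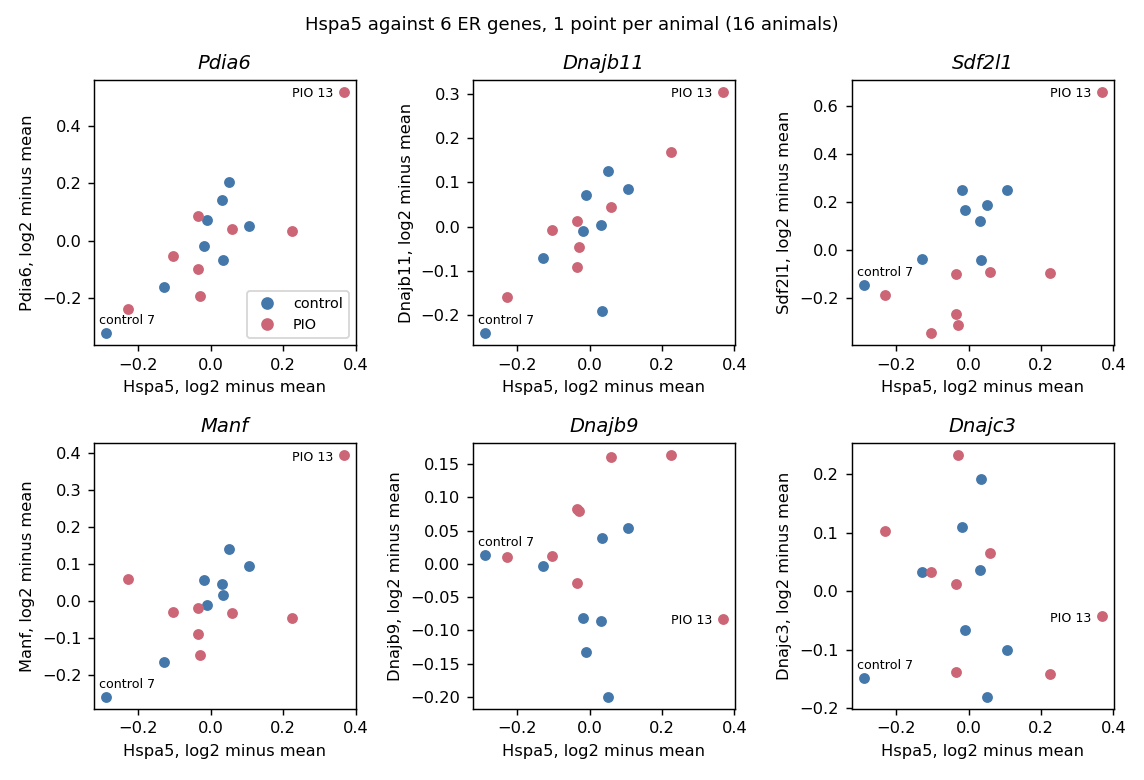
Log2 level minus the gene's mean for 6 ER genes (vertical axes) against that of Hspa5 (horizontal axes), 1 point per animal, 16 animals, coloured by diet. Pdia6, Dnajb11, Sdf2l1 and Manf rise with Hspa5, with PIO animal 13 at the top right and control animal 7 at the left end, and Dnajb9 and Dnajc3 do not.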

How the data were processed

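The deposited table holds 1 log2 value per probe set and array, as the authors made it, with the scale read from the values (0.33 to 16.6, array medians 5.65 to 5.76). MAS5, GCRMA and R 2.7.1 are named per the submitters' processing notes, without a role, so which of them made the values is unknown here. Values were kept as deposited, with no further normalization. Of 45101 probe sets, 64 controls were left out, and 34945 had 1 gene symbol, 932 several and 9160 none in the platform annotation. Probe sets with a mean above the 40th percentile (3.58) were kept, and the brightest per gene gave 12266 genes. Pairs of arrays correlated with r of 0.979 to 0.996. The number of arrays limits the precision, and the labels give each array its own subject number, so the animal is the replicate.

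Diet and array range differences were fitted in limma 3.58.1 (R 4.3.3; lmFit, then eBayes), and p-values were adjusted by Benjamini-Hochberg over all genes. Slopes on Hspa5, Hsph1 and Hspa1b, with diet as a term, were added after the data were seen, with permutation p-values from 100000 two-sided resamples. The fit was tested on simulated data. The genes and the lists were chosen with earlier results of these data known. Named in full were the 12 genes with the smallest p in the diet and in the array range comparison, the 6 with the largest SD, and Hspa1a and Hspa1b; of the wider pathways, up to 4 per list and comparison; Hspa5 and single genes beyond these were chosen after their values were seen. The code that ends each array description forms 3 groups of unstated meaning (5 control and 6 PIO, 2 and 1, 1 and 1) and was tried as a block. The other alternatives were filters, quantile normalization, priors, array weights, marker covariates, probe sets of unique sequence, subsets of arrays and leaving out each animal.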

Additional observations from a re-analysis of the deposited data

Results flagged for a closer look

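Values were flagged where the highest or lowest of the 8 animals of a diet stood apart from the others by more than Dixon's 95% limit. This occurred for 10 of the 78 groups tested, and chance alone flags about 1 in 20 groups, which are not independent of each other. Control animal 4 carried 4 of the flags. Its Dnaja1 stood at 13.50, with the other control animals at 13.24 to 13.36, and its Dnajb1 at 11.35, with the others at 10.99 to 11.14. Its Atf6 stood at 10.50, with the others at 10.12 to 10.29, and the mean of its gene-centred sensors and factors at 0.24, with the others at -0.09 to 0.06.

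PIO animal 13 carried 3 flags, all high ER genes. Sdf2l1 was 8.42, with the other PIO animals at 7.41 to 7.67, Pdia6 was 10.60, with the others at 9.84 to 10.17, and Manf was 11.93, with the others at 11.39 to 11.59. In PIO animal 10, Hspa1b was 11.25, with the others at 10.50 to 10.84. In PIO animal 11, Ddit3 was 9.00 and the lowest, with the others at 9.18 to 9.28. In control animal 8, Calr was 14.12, with the others at 13.81 to 13.95.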

How the results depend on the processing

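No paired analysis was possible because the subject numbers of the 2 diets are not shared. For the diet comparison, 0 genes passed the adjusted threshold under all 28 alternatives, and the 12 genes named for diet kept their direction in all 335 values computed, with 0 past the threshold and a smallest adjusted p of 0.329. The count of all genes at an unadjusted p under 0.05 was 558 with striatal markers as a covariate, 290 in the largest code group alone and 575 to 1137 with each animal left out. Of the 35 genes, the count at that p was 1 with quantile normalization, the code block, the choroid covariate, unique probe sets, the range block or arrays 10 to 24 alone, 0 in the largest code group, and 1 to 4 with each animal left out. For the array range, the count of all genes past the adjusted threshold was 2 with quantile normalization or the code block, 7 with array weights, 0 with the striatal covariate, unique probe sets or the largest code group, 4 in control animals alone, and 0 to 3 with each animal left out. At an unadjusted p it was 2169 with array weights, 766 in control animals alone and 763 to 1532 with each animal left out (763 without PIO animal 10). Of the 35 genes it was 1 with array weights, the code block, the striatal covariate or unique probe sets, 3 in the largest code group, 2 in control animals alone, and 0 to 2 with each animal left out. Of the 12 genes named for the array range, 4 changed sign once each: Hyou1 with unique probe sets (-0.0090), Atf6 in the largest code group (0.0041), Hspb1 in control animals alone (-0.081) and Hspa1b without PIO animal 10 (0.021; -0.16 to 0.021 with each animal left out). The number of ER genes rising with Hspa5 was 5 without its 2 extreme animals and 7 to 9 with each animal left out, and that of all genes was 271 in the largest code group. The smaller groups test fewer animals; otherwise the cause was not tested. Of the measured genes 22 had several probe sets above the filter, and in 11 of these all probe sets went the same way in the diet comparison. The alternative for linear values did not apply.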
